A study of Mus musculus with 11 samples.

Results

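The negative control macrophages of a microRNA-150 study were described on their own, as the baseline transcriptome of elicited peritoneal macrophages from mice. The study sequenced RNA from 11 libraries, 5 labelled negative control and 6 given a microRNA-150 mimic, and the description uses the 5 control libraries because their titles carry that label. All were labelled as peritoneal macrophages from female mice, elicited with thioglycollate, an irritant broth that draws cells into the peritoneal cavity. Their titles number them 1, 2, 3, 4 and 6, and values below keep that order. The design text says that an additional sample was dropped for poor fragmentation, and it was not analysed here. Mouse strain, age, the control reagent, its dose and the time in culture are not given in the sources used here. Whether each replicate is a separate animal or culture is not labelled, so the spread between libraries may be technical.

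Macrophages are phagocytes that take up microbes, dead cells and lipoprotein, digest them in lysosomes, and either store or export the lipid they recover. The peritoneal cavity normally holds a large resident population that depends on the transcription factor GATA6. An irritant such as thioglycollate brings in monocytes, which mature into the elicited macrophages that are widely used as a source of primary cells. In the eye, macrophages of this kind are studied for their effect on the growth of abnormal vessels, which is the setting named in the study's title.

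The deposited values are log2 CPM (each gene's reads plus 0.5, relative to a scaled library total, written as CPM), and whole reads could be recovered from them. The 5 libraries held between 18538509 and 22668862 reads assigned to genes, 102169030 in all. A gene was counted as detected where its mean reached 1 CPM and at least 3 libraries reached 1 CPM. Of 31936 genes, 11489 were detected, among them 10840 protein-coding genes and 181 long intergenic RNAs, and 3207 had no read. No read in any library allows a level of up to 0.0294 CPM over the group, a limit that covers counting error only. Pairwise Pearson correlations across genes lay between 0.9967 and 0.9978, and no library stood apart from the rest by that measure. The closest pair of libraries still differed by more than sampling noise, at a chi-square of 2.59 per degree of freedom, so none was a repeat deposit of another. To compare genes, a level per kilobase was used, which is the mean log2 CPM minus the log2 of the gene's merged exon length in kilobases. It ranks 20009 protein-coding genes, of which 10829 (54.1%) were detected, with a median level of 2.45 per kilobase and a median SD of 0.0737 between libraries. Gene coordinates below are GENCODE M21 on GRCm38, which may differ from the build the authors counted on.

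The most abundant protein-coding transcripts by level per kilobase included those of lysosomal proteases and lipid-binding proteins. The structural RNAs Rn7sk and Rpph1 stood higher still, at 13.74 and 13.62 per kilobase, and are left out of the ranks. Ctsd, which encodes the lysosomal aspartic protease cathepsin D (chr7:142375911-142388038), ranked first of the protein-coding genes at 13.57 per kilobase. Its log2 CPM was 14.84, 14.83, 14.82, 14.77 and 14.75 in the 5 libraries (mean 14.80, SD 0.0386, n = 5). Psap, the precursor of the saposins that help break down sphingolipids (chr10:60277627-60302597), followed at 13.50 per kilobase and Ctss, the protease cathepsin S (chr3:95526786-95556403), at 13.47. Those 3 levels lie close together, with an SD of 0.0745 between libraries for the log2 CPM of Ctss. Per kilobase of merged exons Ctsd was the highest of the 3 in every library. Psap and Ctss changed places between libraries, so the order of that pair is not firm. With the longest transcript as the length, Apoe ranked first and Ctsd came next.

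Apoe, the apolipoprotein that carries cholesterol out of macrophages (chr7:19696109-19699188), and Lyz2, the macrophage lysozyme (chr10:117277331-117282321), stood at the same level of 13.27 per kilobase. Gpnmb, a transmembrane glycoprotein of lysosomes and lipid-loaded macrophages (chr6:49036546-49070929), ranked sixth per kilobase at 12.37. It took more reads than any other gene, 3.46% ± 0.0925 (SD, n = 5) of each library, with log2 CPM of 15.16, 15.08, 15.08, 15.02 and 15.03. Replicate 1 was the highest and the other libraries lay close together. The 20 highest protein-coding genes per kilobase also held Actb, Lgals3, B2m, Ctsb, Cd68, H2-D1, Fth1, Spp1, Tmsb4x, Ftl1, Ctsz, Tyrobp, Cd36 and Lamp1. Of these, Fth1 and Ftl1 encode the ferritin chains that store iron, Spp1 the secreted matrix protein osteopontin, and Cd36 a receptor for oxidised lipoprotein and fatty acids. The 50 genes with the most reads held between 30.1% and 31.3% of each library.

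**Figure D1:**
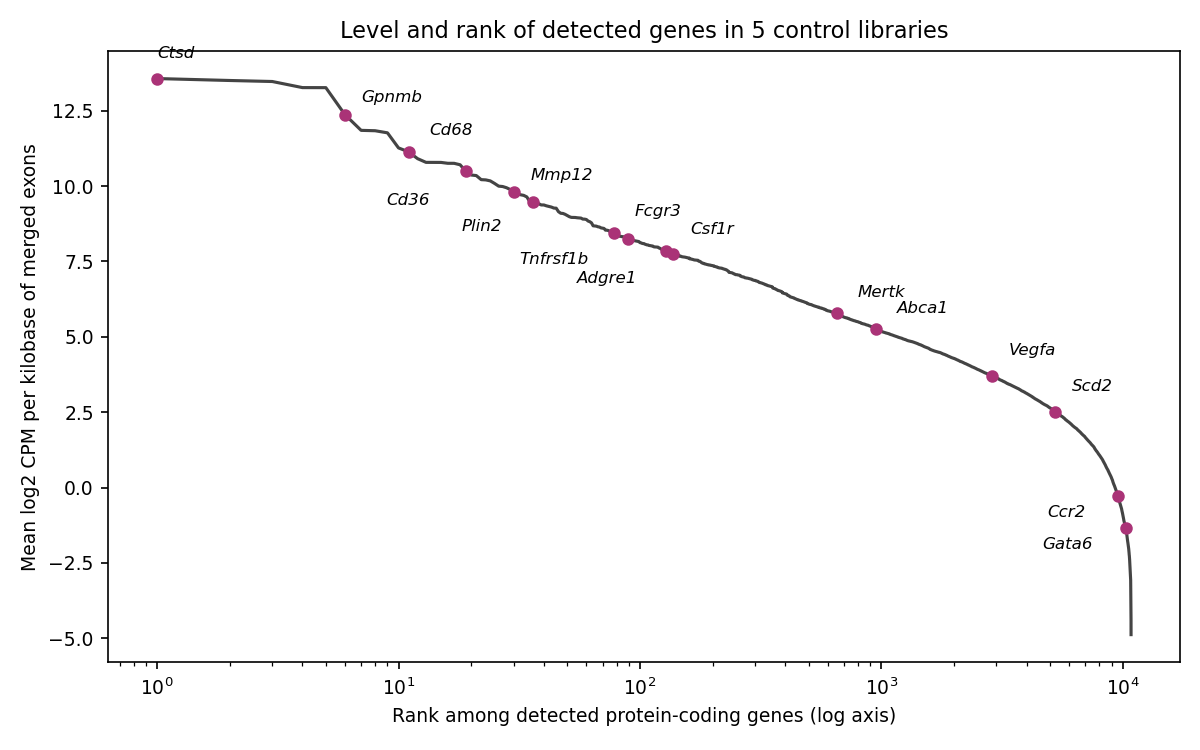
Mean log2 CPM per kilobase of merged exons over the 5 control libraries (vertical axis) against rank among detected protein-coding genes (horizontal log axis), with named genes as points on the curve. The curve falls from 13.57 for Ctsd to -4.88, and Cd68, Csf1r and Adgre1 sit near its top while Ccr2 and Gata6 sit on the steep end.

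The promoters of Ctsd, Ctss and Cd53, the last a tetraspanin of leukocytes at 9.27 per kilobase, are shown because each holds the core letters bound by a factor that is known to act in macrophages. Each run covers 250 bases before to 30 after the RefSeq start site (GRCm38.p6), read 5′ to 3′ on the gene's strand, with the motif match in capitals. Ctsd (chr7:142387798-142388077, minus strand) holds TCACGTGA, the core of the sites of TFEB and related factors, which switch on lysosomal genes, starting 99 bases before the start site. Ctss (chr3:95526536-95526815, plus strand) and Cd53 (chr3:106790120-106790399, minus strand) hold GAGGAAGT on the opposite strand, a core of PU.1, the factor that sets the myeloid lineage, starting 2 bases before and 6 bases after the start site. The promoters and motifs shown were picked after motif counts had been seen.
Ctsd: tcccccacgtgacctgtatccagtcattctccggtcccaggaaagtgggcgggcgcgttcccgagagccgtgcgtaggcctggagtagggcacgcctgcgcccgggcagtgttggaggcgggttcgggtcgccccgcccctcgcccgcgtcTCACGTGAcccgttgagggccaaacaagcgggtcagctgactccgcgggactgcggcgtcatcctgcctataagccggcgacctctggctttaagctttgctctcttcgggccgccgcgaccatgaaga
Ctss: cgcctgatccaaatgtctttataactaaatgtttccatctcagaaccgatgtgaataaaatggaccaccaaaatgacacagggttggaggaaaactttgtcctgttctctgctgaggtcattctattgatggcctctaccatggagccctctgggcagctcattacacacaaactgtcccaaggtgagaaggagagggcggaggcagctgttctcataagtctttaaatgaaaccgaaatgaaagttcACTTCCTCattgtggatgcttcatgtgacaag
Cd53: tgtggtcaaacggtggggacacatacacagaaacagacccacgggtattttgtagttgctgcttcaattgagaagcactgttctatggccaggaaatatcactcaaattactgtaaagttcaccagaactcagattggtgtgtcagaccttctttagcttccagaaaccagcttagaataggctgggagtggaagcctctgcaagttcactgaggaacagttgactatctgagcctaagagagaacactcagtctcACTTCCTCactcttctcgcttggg

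Both motifs were searched on both strands in windows of 300 bases around the start sites of 15395 protein-coding genes of the table. TCACGTGA was present in 1.37% of these promoters, in 0.372% of those of genes below the detection level, and in 1.20%, 1.89%, 2.17% and 3.32% of those of detected genes in 4 equal classes from the lowest to the highest level per kilobase. GAGGAAGT was present in 2.92% of all, in 2.32% below the detection level, and in 2.67%, 2.86%, 3.69% and 4.33% from the lowest to the highest class. Few promoters within the lists held the letters. TCACGTGA was in 1 of 26 detected lysosomal genes that have a window (3.85%) and in none of 15 such pan-macrophage genes. GAGGAAGT was in 2 of those 15 (13.3%) and in 3 of those 26 (11.5%). Over all genes the shares became larger with level for both sets of letters, while a match is no proof of a bound site. Base composition moves with level too, since the median promoter held 5 CpG pairs below the detection level and 19 to 22 in the 4 classes, and its part in the shares was not tested. TATAAA, the TATA box, went another way, with 18.6% below the detection level, 5.44% to 7.47% in the classes, and 21 of the 100 highest genes.

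The 4 genes by which macrophages are most often recognised were all abundant, with small differences between the 5 libraries. Cd68, a lysosomal glycoprotein (chr11:69664213-69666153), ranked 11 of 20009 at 11.14 per kilobase, with log2 CPM of 11.51, 11.52, 11.48, 11.39 and 11.45. Csf1r, the receptor for the growth factor on which macrophages depend, ranked 128 at 7.85 per kilobase, with log2 CPM of 10.43, 10.43, 10.38, 10.37 and 10.31. Itgam, the CD11b integrin chain (chr7:128062640-128118491), ranked 134 at 7.77 per kilobase, with log2 CPM of 10.13, 10.10, 10.10, 10.11 and 10.06. All 3 genes spanned less than 0.2 log2 units from the lowest to the highest library. Adgre1, which encodes the F4/80 antigen (chr17:57358691-57483527), ranked 137 at 7.76 per kilobase, with log2 CPM of 9.54, 9.52, 9.46, 9.46 and 9.32. Replicate 6 was the lowest for Adgre1, Csf1r and Itgam, though not for Cd68. Itgam shares 68.1% of the 31-base words of its transcripts with other annotated genes, so its level is less certain than those of the other 3 markers, which share at most 0.38%.

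All 20 genes of the pan-macrophage list were detected, and 19 of them were in the top 10% of detected protein-coding genes. The list's median level was 7.77 per kilobase, against 2.45 over all detected protein-coding genes. Tyrobp and Fcer1g, the signalling adaptors of many myeloid receptors, stood at 10.71 and 8.68 per kilobase, and Mertk, a receptor for dying cells, at 5.78. The exception was Aif1, which encodes the calcium-binding protein Iba1 often used to stain microglia, at 2.67 per kilobase (rank 4943) with 996 reads over the 5 libraries. Fcgr1, the high-affinity IgG receptor, had log2 CPM of 6.68, 6.68, 7.11, 6.69 and 6.68, so that replicate 3 stood above libraries that were otherwise almost equal. Summed over the 20 genes, the level was highest in replicate 1 at 46557 CPM and lowest in replicate 6 at 40996 CPM. Replicates 1 and 2 held the highest value for 9 and 8 of the 20, against 22.3% and 19.9% of all detected protein-coding genes.

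Transcription factors of the lineage followed. Of 23 such genes, 21 were detected, and 7 were in the top 10%. Cebpa, Cebpb and Spi1, the last of which encodes PU.1, stood at 7.42, 7.29 and 6.76 per kilobase, and Irf5, a factor of inflammatory activation, at 6.79. Egr2, a zinc-finger factor, reached 5.98 per kilobase, against 0.36 for its relative Egr1, an early-response gene. Spic, a factor of iron-recycling macrophages, stayed below the detection level with 83 reads.

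Genes of resident large peritoneal macrophages were mostly low. Of 18 listed, 12 were detected with a median of -0.44 per kilobase, and 1 was in the top 10%. Gata6 had log2 CPM of 1.16, 1.42, 1.49, 1.63 and 1.13 and ranked 10492, from 264 reads in all. Those values spread by an SD of 0.213, close to the 0.20 that counting alone would give. Timd4, a receptor for phosphatidylserine on long-lived resident cells, had 95 reads, Alox15 had 66 and Selp had 45, all below the detection level. In bulk RNA, few cells of a type and little RNA per cell cannot be told apart. Against that pattern, F10, which encodes coagulation factor X, stood at 5.90 per kilobase (rank 588) and Vsig4, a complement receptor, at 4.29 (rank 1989).

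Genes used for monocytes and recently recruited macrophages were split. Of 18 listed, 13 were detected with a median of 4.81 per kilobase, and 6 were in the top 10%. Ccr2, the receptor that draws monocytes out of the marrow, had log2 CPM of 2.66, 2.67, 2.62, 2.32 and 2.12 and ranked 9607. Ly6c2, a surface protein of classical monocytes, had 42 reads and was below the detection level. S100a6, S100a4 and Lyz1 stood at 7.67, 6.93 and 6.83 per kilobase, and Thbs1 and Fn1, both secreted matrix proteins, at 5.56 and 5.50. Mrc1 and Folr2, a mannose receptor and a folate receptor, were at 5.41 and 4.81. Cx3cr1, the fractalkine receptor, had log2 CPM of 1.07, 1.03, 1.16, 0.95 and 0.31, with replicate 6 apart from the rest.

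Other cell types that peritoneal lavage can hold were looked for through their defining genes. None of 10 mast cell and basophil genes, of 8 NK cell genes or of 7 erythroid genes was detected, and their summed levels were 0.935 to 1.59, 0.246 to 0.581 and 0.475 to 1.37 CPM across libraries. Of 11 T cell genes only Il7r was detected, and the T cell receptor components Cd3d, Cd3e and Cd3g had 11, 3 and 1 reads. Il7r, the interleukin-7 receptor (chr15:9505788-9530176), was abundant at 7.65 per kilobase (rank 150), with log2 CPM of 9.91, 9.89, 9.87, 9.85 and 9.85. It carried nearly all of the 923 to 966 CPM summed over the T cell list. A single gene was also detected for some other cell types, with Siglecf alone among 8 eosinophil genes at 3.63 per kilobase, Pf4 alone among 6 platelet genes at 5.73, and Vwf alone among 8 endothelial genes at 3.11. Epx, Gp9 and Cdh5, which define those cells, had 9, 1 and 25 reads. The lists summed to between 33.7 and 36.1 CPM for eosinophils, 36.1 and 40.3 for platelets, and 132 and 146 for endothelial cells.

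Neutrophil genes gave a more uneven result. Of 13 listed, 4 were detected, with Mmp8, Csf3r and S100a8 at 5.03, 5.02 and 4.39 per kilobase and Cxcr2 at -1.21. S100a8 (chr3:90668978-90670035) had log2 CPM of 3.92, 4.04, 3.97, 3.72 and 3.67 from 1503 reads. Its partner S100a9 (chr3:90692632-90695721), which encodes the other chain of calprotectin and lies nearby on the chromosome, had 2 reads in all 5 libraries together. None of the 31-base words of either gene's transcripts occurs in another annotated gene. Ly6g and Mpo, which define mature and immature neutrophils, had 3 and 7 reads, and the list summed to between 203 and 222 CPM.

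B cells were represented by Ighm alone among 9 genes, the constant region of IgM, with log2 CPM of 1.41, 1.19, 1.44, 0.73 and 0.31. Cd79a, a part of the B cell receptor, had 34 reads. Among 12 dendritic cell genes 7 were detected, and those with high levels, Cd74, Itgax and H2-Ab1 at 7.54, 7.54 and 5.63 per kilobase, serve antigen presentation or adhesion in macrophages as well. Of the genes closer to defining dendritic cells, Flt3, Xcr1 and Siglech had 22, 44 and 3 reads. Clec9a and Zbtb46, which are also closer to defining them, were detected at low levels. Clec9a stood at -1.42 per kilobase from 125 reads, and Zbtb46 was lower per kilobase.

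Stromal genes were present at low levels. Of 9 fibroblast genes 5 were detected, led by Col1a2 at 0.79 per kilobase and Col3a1 at 0.59, and the list summed to between 45.3 and 67.4 CPM. Of 8 mesothelial genes 7 were detected with a median of -1.49 per kilobase, and the list summed to between 8.77 and 12.4 CPM. Lum and Krt19 stayed below the detection level with 18 and 55 reads. The labelled sex was matched by the sex-linked genes, with Xist at a mean log2 CPM of 8.83, no read of Ddx3y and 2 reads of Kdm5d.

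**Figure D2:**
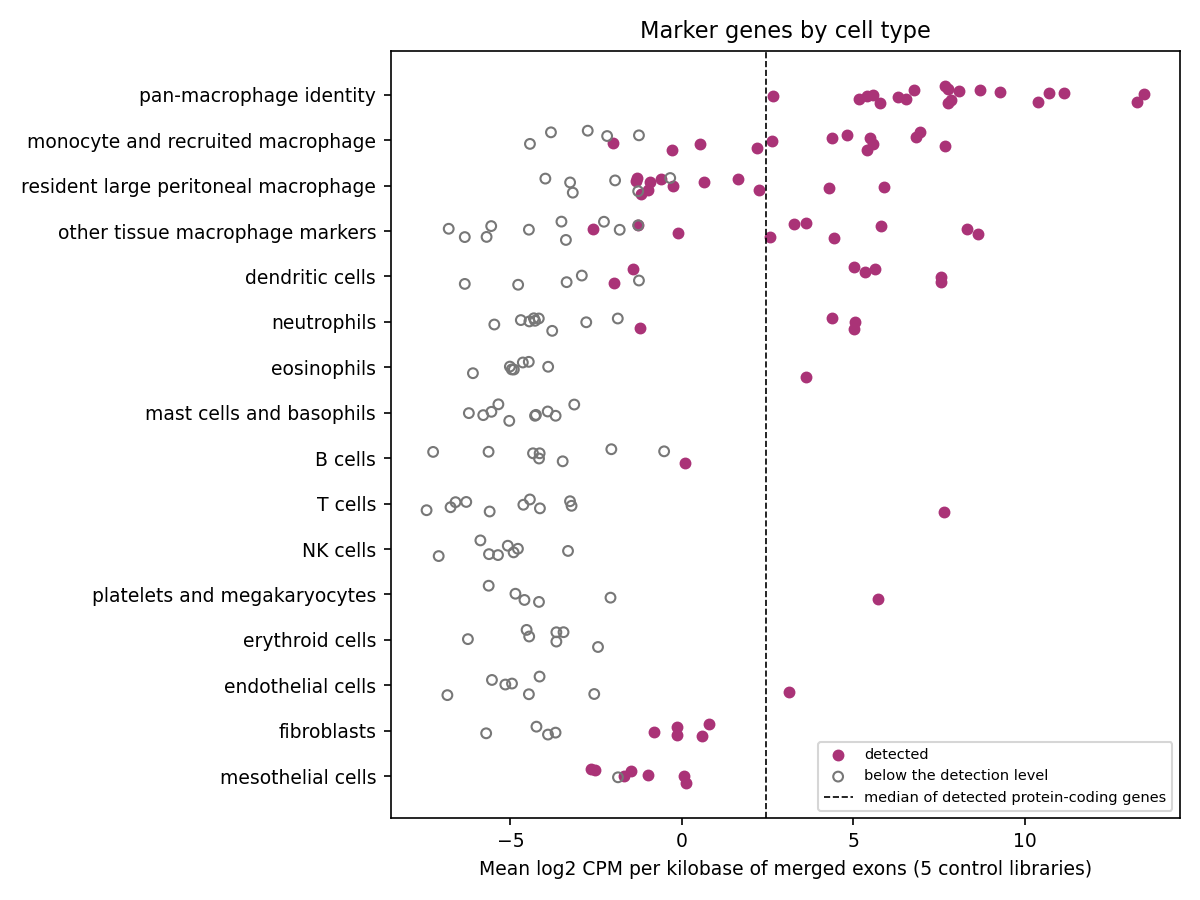
Mean log2 CPM per kilobase over the 5 control libraries (horizontal axis) of each marker gene, by cell type, with filled points for detected genes, open points for genes below the detection level and a dashed line at the median of detected protein-coding genes (2.45). All 20 pan-macrophage genes lie to the right of the line, while the T cell, platelet, eosinophil and endothelial rows each hold 1 filled point.

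Receptors for microbial products came next. Of 19 Toll-like receptors and their helper proteins, 16 were detected, with a median of 3.81 per kilobase. Tlr13, which recognises bacterial ribosomal RNA (chrX:106143204-106160493), was the highest of the receptors at 7.57 per kilobase (rank 164), with log2 CPM of 9.73, 9.73, 9.69, 9.65 and 9.60. Tlr8 followed at 5.80, and Tlr4, Tlr7 and Tlr2, the receptors for lipopolysaccharide, single-stranded RNA and bacterial lipoprotein, stood at 4.24, 4.18 and 4.16. Those last 3 levels were too close together to give them an order. Tlr3 and Tlr9, which sense double-stranded RNA and CpG DNA, were near the bottom at 0.80 and -1.34. Tlr11, Tlr12 and Tlr5 were below the detection level with 56, 12 and 8 reads. Unc93b1, which brings the nucleic acid receptors to endosomes, was at 7.77 per kilobase, a level between those of Itgam and Adgre1.

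All 18 cytosolic sensors were detected, with a median of 3.02 per kilobase. Casp1, the protease of inflammasomes, led with 5.80, whereas Nlrp3 and Nod2 stood at 1.97 and 0.05. Naip2, Naip5 and Naip6, sensors of bacterial flagellin and secretion needles, share from 32.7% to 52.6% of their 31-base words with other genes, and their split is uncertain.

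Of 23 C-type lectin genes 15 were detected, with Clec7a, the beta-glucan receptor dectin-1, at 8.57 per kilobase and Clec4d at 8.54. Clec4e, whose protein pairs with that of Clec4d, was lower at 2.89, with log2 CPM of 5.27, 5.38, 5.37, 5.16 and 4.83. Replicate 6 was the lowest for all 3, and by the widest margin for Clec4e. Of 18 Fc and complement receptor genes 15 were detected with a median of 5.40, and 9 were in the top 10%. Itgb2, the common chain of the CD11 integrins, was at 9.89, and Fcgr3, C3ar1, Fcgr4 and Fcgr2b at 8.45, 8.25, 5.81 and 4.87 per kilobase.

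Scavenger receptors, which bind modified lipoprotein, were detected for 14 of 21 genes with a median of 4.47 per kilobase. Cd36 (chr5:17781690-17888801) stood at 10.49, with log2 CPM of 12.39, 12.37, 12.35, 12.26 and 12.31, far above Lrp1 at 5.90, Msr1 at 5.74 and Marco at 3.27. Lrp1, the large endocytic receptor of apolipoprotein E, was unusual in its spread, with log2 CPM of 9.82, 9.91, 10.18, 9.99 and 10.35. Replicate 6 was the highest and replicate 1 the lowest, and its SD of 0.217 compares with 0.0098 from counting alone. Cd163, the haemoglobin scavenger of some resident macrophages, had 64 reads and was below the detection level. Of 20 genes for the uptake of dying cells 16 were detected, led by Mfge8 at 8.99 per kilobase, with Axl at 3.88 and Tyro3 below the level with 29 reads.

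Chemoattractant receptors were detected for 12 of 28 genes. C3ar1, Cxcr4, Ccrl2, C5ar1 and Ccr1 stood at 8.25, 6.77, 5.70, 5.28 and 5.18 per kilobase. Fpr1, Fpr2 and Ccr7 had 81, 47 and 26 reads and were below the level. Cytokine and growth factor receptors were detected for 32 of 38 genes with a median of 4.34 per kilobase, and their median SD was 0.048 between libraries. Tnfrsf1b, the second receptor of TNF (chr4:145213463-145246870), led at 8.25 per kilobase with log2 CPM of 10.21, 10.21, 10.17, 10.17 and 10.15. That is above Tnfrsf1a, the receptor with a death domain, at 5.01. Csf2ra, Ifngr1, Ifngr2 and Tgfbr1 stood at 6.79, 6.36, 6.25 and 6.06, whereas Il1r1 was at -0.32 and the decoy Il1r2 had 9 reads.

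**Figure D3:**
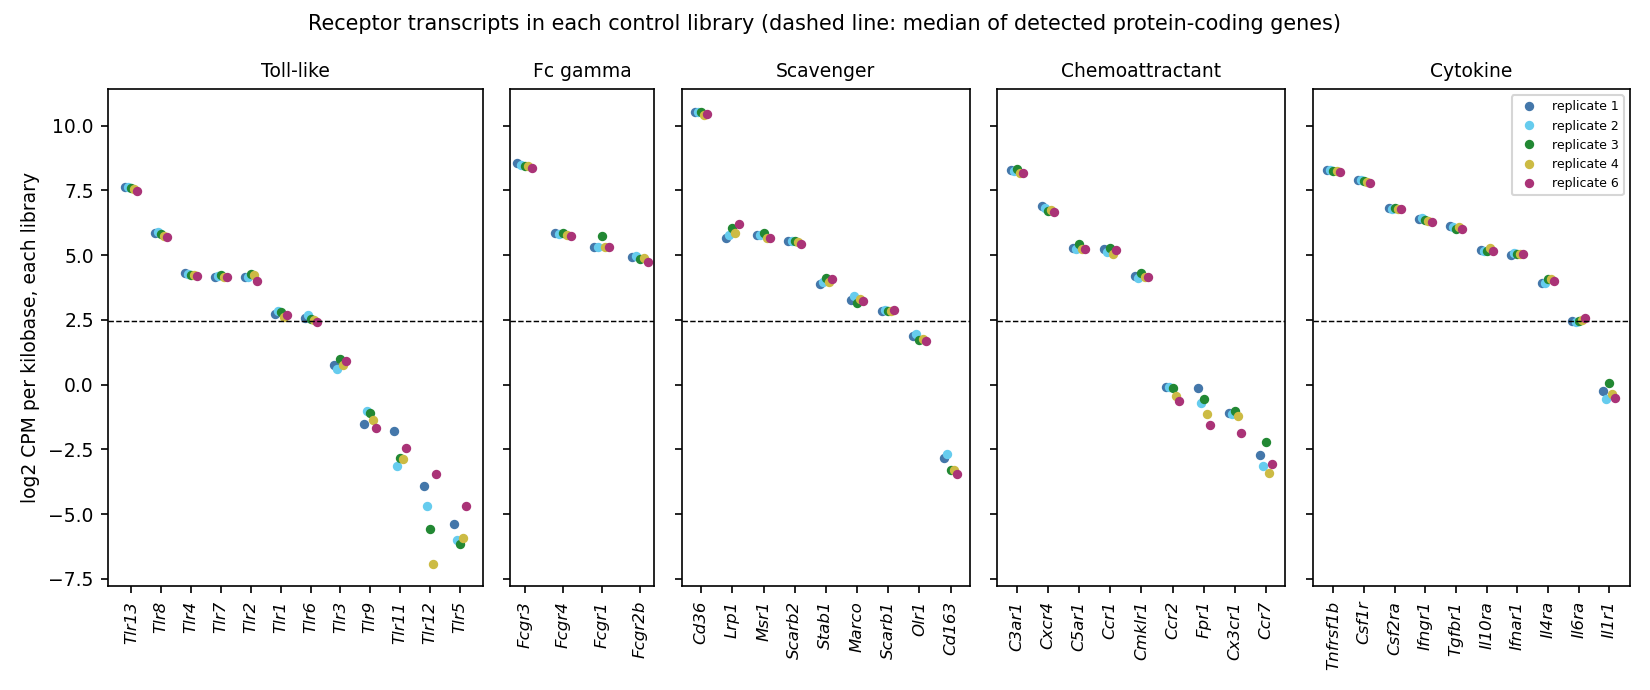
log2 CPM per kilobase of receptor genes in each control library (vertical axis), in 5 classes, with 1 coloured point per replicate and a dashed line at the median of detected protein-coding genes. The 5 points of Tlr13, Cd36, C3ar1 and Tnfrsf1b nearly coincide, Fcgr1 has 1 high point in replicate 3, and the points of Tlr11, Tlr12 and Tlr5 scatter at the low end.

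The study's title concerns vessel growth, and the VEGF family was therefore read member by member. Of 17 ligands and receptors of the VEGF and angiopoietin families, 9 were detected, with a median of 1.94 per kilobase. Nrp1, a co-receptor of VEGF and semaphorins (chr8:128358604-128503363), was the highest at 5.92, with log2 CPM of 9.24, 9.20, 9.23, 9.21 and 9.20, and Nrp2 followed at 4.85. The ligand Vegfa stood at 3.71, with log2 CPM of 5.74, 5.69, 5.88, 5.78 and 5.94, and Vegfb at 1.94. The signalling receptors were lower, with Kdr at 1.14 and Flt1 at -3.64, while Flt4, Vegfc and Pgf had 38, 75 and 13 reads and were below the level. Nrp1 and Nrp2 varied little, with SDs of 0.017 and 0.0185, whereas Vegfa varied by 0.101, with replicates 3 and 6 the highest. Of 35 other angiogenic and growth factor genes 21 were detected. Grn, the lysosomal growth factor progranulin, was at 8.16 per kilobase, Igf1 at 5.24, Gdf15 at 4.50, and Pdgfb at 2.39, and the hypoxia factors Hif1a and Epas1 were at 4.48 and 4.16.

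Several genes of lipid uptake and storage were abundant. Of 24 such genes 14 were detected, a share of 58.3% against 54.1% of all protein-coding genes, and the median of those 14 was 6.08 per kilobase, above the 95th percentile of detected protein-coding genes. Plin2, which coats lipid droplets (chr4:86648386-86670060), stood at 9.47 per kilobase, with log2 CPM of 11.29, 11.26, 11.31, 11.22 and 11.31. Fabp5, Lpl and Fabp4, which bind fatty acids or release them from triglyceride, were at 8.65, 8.32 and 7.51. Other genes that adipocytes use were low, with Lipe, the hormone-sensitive lipase, at 1.01 per kilobase and 56 reads of Plin4 and 4 of G0s2, although Fabp4 and Lpl are adipocyte genes too. Dgat1 was detected at 3.25 per kilobase, and Dgat2, the other enzyme of the last step of triglyceride synthesis, had 47 reads.

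Cholesterol handling was detected for 22 of 26 genes, with a median of 5.12 per kilobase and 11 genes in the top 10%. Lipa, the lysosomal acid lipase, and Npc2, which lifts cholesterol out of the lysosome, stood at 9.09 and 8.68. Soat1 and Nceh1, which esterify cholesterol and hydrolyse the ester again, were at nearly the same level of 7.29 and 7.27. The exporters Abcg1 and Abca1 were at 6.10 and 5.25, with SDs of 0.0272 and 0.0203 between libraries. Apoc1, which lies close to Apoe in the genome, had 58 reads against 2163252 for Apoe, although Apoc2 was detected at 4.45 per kilobase. Ch25h, which makes the signalling sterol 25-hydroxycholesterol, had 6 reads.

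Sterol synthesis was detected for 24 of 25 genes, at a lower median of 2.79 per kilobase. Insig1 and Hmgcs1 led at 5.42 and 4.92 per kilobase. Idi1 was far below its neighbours in the pathway at -1.09 per kilobase. Fatty acid synthesis and desaturation was detected for 14 of 23 genes. Elovl1 and Acly stood at 6.08 and 5.42, but Fasn and Acaca, the enzymes that build the chain, at 0.78 and 0.47. Scd2 was at 2.51 per kilobase and Scd1, the isoform of liver and fat, at -1.96, with log2 CPM of -0.23, 0.08, 0.48, 0.78 and 0.54 from 129 reads. Fads1 stood at 3.58, whereas Fads2, which acts one step earlier on the same fatty acids, had 53 reads. Of 22 fatty acid oxidation genes 20 were detected, with Cpt1a at 4.75, and Ppargc1a, a co-activator of mitochondrial growth, at -1.14.

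The promoter of Insig1 is shown because CCAAT, the core bound by the factor NF-Y next to many sterol-regulated sites, was found in 17 of the 19 detected sterol synthesis genes with a RefSeq window. The same letters were present in 38.4% of all 15395 promoters. The sterol regulatory element itself, searched as TCACNCCAC, was found in 1 of those 19 promoters and in 1.16% of all. The run covers chr5:28071162-28071441 on the plus strand (GRCm38.p6), with the match in capitals on the opposite strand, 216 bases before the start site. CCAAT was singled out for this list after the counts had been seen.
Insig1: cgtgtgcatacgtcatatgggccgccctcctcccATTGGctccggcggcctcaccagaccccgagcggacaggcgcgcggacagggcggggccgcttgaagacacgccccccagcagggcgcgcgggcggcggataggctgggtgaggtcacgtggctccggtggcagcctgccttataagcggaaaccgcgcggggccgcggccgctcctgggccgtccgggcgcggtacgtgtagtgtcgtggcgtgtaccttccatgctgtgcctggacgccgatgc

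Nuclear receptors that sense lipids were detected for 23 of 33 genes, none in the top 10%, with a median of 1.48 per kilobase. Rxra, Nr1h3 (the oxysterol receptor LXR alpha) and Pparg stood at 5.06, 4.99 and 4.82. Pparg had log2 CPM of 6.51, 6.42, 6.35, 6.32 and 6.30, highest in replicate 1. Ppard was at 0.49, and Ppara and Vdr had 10 and 46 reads. Of 28 eicosanoid genes 21 were detected, with Alox5ap and Pla2g7 at 7.54 and 7.36 per kilobase. Alox5, the enzyme that Alox5ap serves in leukotriene synthesis, stood at only -0.40. Ptgs1 was at 2.76, and Ptgs2, the inducible cyclooxygenase, at -1.44 with log2 CPM of 1.07, 0.27, 0.94, 0.54 and 0.95.

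Matrix proteases were dominated by a single gene. Mmp12, the macrophage metalloelastase (chr9:7344381-7369499), ranked 30 at 9.79 per kilobase, with log2 CPM of 12.70, 12.71, 12.63, 12.58 and 12.60. It took 0.643% of all reads, and the next metalloproteinases, Mmp19, Mmp8 and Mmp14, stood at 5.46, 5.03 and 4.46 per kilobase. Mmp9, the gelatinase of neutrophils and inflamed macrophages, was at 1.10, and Mmp2 had 95 reads. Of 24 metalloproteinases and inhibitors, 11 were detected. Timp2 was the main inhibitor at 7.17 per kilobase, against 2.08 for Timp1. Among 19 ADAM and ADAMTS genes 12 were detected, with Adam8 at 7.46 and Adam17, which sheds TNF and its receptors, at 5.75.

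The plasminogen and coagulation list was detected for 17 of 21 genes, with 8 in the top 10%. Plaur and Plau, the urokinase receptor and urokinase, stood at 6.57 and 6.52 per kilobase. F7, which encodes coagulation factor VII and is best known from liver, was at 7.50 (rank 178), with log2 CPM of 8.40, 8.42, 8.41, 8.35 and 8.36. F10, its neighbour on chromosome 8, was at 5.90, and F3, the tissue factor to which factor VII binds, at 2.00.

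Matrix proteins were detected for 37 of 42 genes, but their median was only 0.59 per kilobase. The high members were Lgals3, Spp1 and Lgals1 at 11.84, 10.79 and 10.22, then Srgn, Thbs1, Fn1 and Emilin2 at 6.00, 5.56, 5.50 and 5.42. Spp1 had log2 CPM of 11.54, 11.57, 11.60, 11.38 and 11.45, and Fn1 of 8.91, 9.15, 9.11, 8.85 and 9.19. Replicates 1 and 4 were the lowest for Fn1 and replicates 4 and 6 for Spp1, so the pair did not move together. The fibrillar collagens were much lower, with Col1a1 at -0.82 per kilobase. Integrins and adhesion genes were detected for 23 of 34, led by Itgb2, Cd9, Itgam and Itgb1 at 9.89, 8.91, 7.77 and 7.55, while Vcam1 stood at -2.59.

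Lysosomal genes were abundant as a group. Of 36 lysosomal genes and cathepsins 34 were detected and 27 were in the top 10%, with a median percentile of 97.8 and a median of 7.17 per kilobase. The list held 12.3% ± 0.182 (SD, n = 5) of all reads. Ctsl, Lgmn, Hexa and Ctsk, which digest protein or glycolipid, stood at 9.99, 9.69, 9.64 and 8.64 per kilobase. Ctsk had an SD of only 0.0159, from log2 CPM of 9.27, 9.24, 9.24, 9.22 and 9.23. Tfeb and Tfe3, the factors that drive lysosomal genes, were at 4.12 and 3.26. Ctsg and Ctsw, the cathepsins of neutrophils and of cytotoxic lymphocytes, had 3 and 62 reads.

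All 33 antioxidant and iron genes were detected and 19 were in the top 10%. Cyba and Cybb, the membrane subunits of the phagocyte NADPH oxidase, stood at 10.35 and 8.53 per kilobase, and Hmox1, which degrades haem, at 8.31. Slc11a1, the divalent metal exporter of phagosomes, and Tfrc, the transferrin receptor, were at 8.03 and 7.62, whereas the iron exporter Slc40a1 was at 0.30. Of 29 complement and opsonin genes 16 were detected. C1qb, C1qc and C1qa, the 3 chains of C1q, stood at 8.95, 8.05 and 7.88 per kilobase, and Cfb and C2 had 99 and 50 reads.

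Chemokine and cytokine genes were detected in shares of 43.3% and 37.5%, against 54.1% of all protein-coding genes. Of 30 chemokine genes 13 were detected, and 4 were in the top 10%. Ccl6, Ccl9, Pf4 and Ccl3 stood at 7.05, 5.93, 5.73 and 5.13 per kilobase, and Ccl2 at 2.64. Ccl5 and Cxcl10 were below the level with 52 and 62 reads. Of 40 cytokine genes 15 were detected, with 1 in the top 10%. Tnfsf12 and Il1rn, the natural antagonist of interleukin-1, led at 5.25 and 4.45, and Tnf stood at 4.10 with log2 CPM of 4.73, 4.90, 4.96, 4.79 and 4.67. Il1a was at 3.95 per kilobase and Il1b, the other interleukin-1 ligand, below the detection level at -0.94, with log2 CPM of 0.12, -0.39, 1.10, -0.49 and -0.38 and replicate 3 apart from the rest. Il6, Il12b and Il10 had 7, 15 and 16 reads.

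Of 27 genes used to tell classical from alternative activation 20 were detected. Of the classical genes Nos2, the inducible nitric oxide synthase, had 10 reads and Ptgs2 was barely above the level. Of the alternative genes Egr2, Mrc1 and Retnla stood at 5.98, 5.41 and 4.38 per kilobase and Arg1 at 3.29, with log2 CPM of 4.46, 4.45, 4.74, 4.07 and 4.52. Chil3 was at 2.64. Other members of the list went both ways. Cd86, Cd38 and Cd40, used for classical activation, were detected at levels below Chil3 and above Clec10a and Irf4, used for alternative activation. Mgl2, Pdcd1lg2 and Cd163, also used for alternative activation, stayed below the detection level. Cell cycle genes were detected for 16 of 20, with a median of 0.26 per kilobase. Pcna and Mcm3, which act in DNA replication, were at 5.66 and 3.63, whereas Mki67, Top2a and Cdk1, which mark dividing cells, stood at -0.19, -0.05 and -0.55.

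Interferon-response genes were expressed without any interferon in the labels and differed between libraries more than most lists. Of 28 listed genes 25 were detected, with a median of 3.65 per kilobase, led by Ifitm3, Bst2 and Ifitm2 at 7.89, 7.36 and 7.14. Their median SD was 0.18, against 0.0737 over all detected protein-coding genes. Ifit2, an inhibitor of viral translation (chr19:34550694-34576419), had log2 CPM of 4.77, 4.86, 5.76, 5.43 and 5.42. Mx1, an antiviral GTPase, had 3.90, 4.13, 4.77, 4.39 and 4.45, and Irf7, the factor that amplifies the response, 6.99, 7.07, 7.57, 7.16 and 7.32. All 3 were highest in replicate 3 and lowest in replicate 1, with replicate 2 the next lowest. Across the 25 detected genes 21 were highest in replicate 3, compared with 20.4% of all detected protein-coding genes. The mean deviation of the 25 from each gene's own mean was 0.25 in replicate 3, 0.07 in replicate 6, 0.02 in replicate 4, and -0.17 and -0.18 in replicates 2 and 1. Of the 13 detected chemokines 8 were highest in replicate 3 too, although their summed level was highest in replicate 2, and the cytokine list summed to 385 CPM in replicate 3 and to between 359 and 360.2 CPM in the others. No value in the files bears on how those cultures were handled, and the cause was not tested.

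The promoters of Isg15 and Ifit3 are shown because, of the interferon-response genes that hold the motif, they varied most between libraries. Both hold GAAANNGAAA, the core of the interferon-stimulated response element, in capitals where found on either strand. Isg15 (chr4:156200789-156201068, minus strand) has 3 overlapping matches between 78 and 66 bases before the start site, and Ifit3 (chr19:34583279-34583558, plus strand) has matches starting 156 and 122 bases before it, on the opposite strand. The core was found in 12 of 19 detected interferon-response genes with a RefSeq window and in 3.37% of all 15395 promoters. A match is a description of the letters, not of binding.
Isg15: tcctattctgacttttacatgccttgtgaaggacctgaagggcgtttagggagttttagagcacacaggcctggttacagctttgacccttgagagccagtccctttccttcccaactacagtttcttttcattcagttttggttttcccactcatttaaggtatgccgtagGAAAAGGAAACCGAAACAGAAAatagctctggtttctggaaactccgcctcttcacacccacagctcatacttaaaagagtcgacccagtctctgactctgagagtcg
Ifit3: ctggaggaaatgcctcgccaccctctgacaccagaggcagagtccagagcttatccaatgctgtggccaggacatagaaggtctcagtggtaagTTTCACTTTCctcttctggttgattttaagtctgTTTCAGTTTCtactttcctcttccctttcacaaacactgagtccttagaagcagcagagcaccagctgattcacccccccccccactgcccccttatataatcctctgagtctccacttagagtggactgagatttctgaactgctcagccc

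Most genes varied little beyond counting. Among the 8253 protein-coding genes whose mean log2 CPM reached 3, the median SD between the 5 libraries was 0.0612, where counting alone would give 0.0509. The share of such genes with an SD above 0.1 was 16.9%, and 20 genes exceeded 0.25. At a mean log2 CPM between 1 and 2, with a median of 59.6 reads per library, the median SD was 0.184 against 0.189 from counting. By this measure the median gene there showed no excess over counting, which does not exclude a small one. From 10 upwards the median SD was 0.0452 against 0.0077 from counting. The median excess over counting was 0 between 2 and 3 as well, 0.029 between 3 and 4, and 0.0378 between 8 and 10. Sf3b2, a splicing factor, was the steadiest gene, with log2 CPM between 7.93 and 7.94 in every library.

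**Figure D4:**
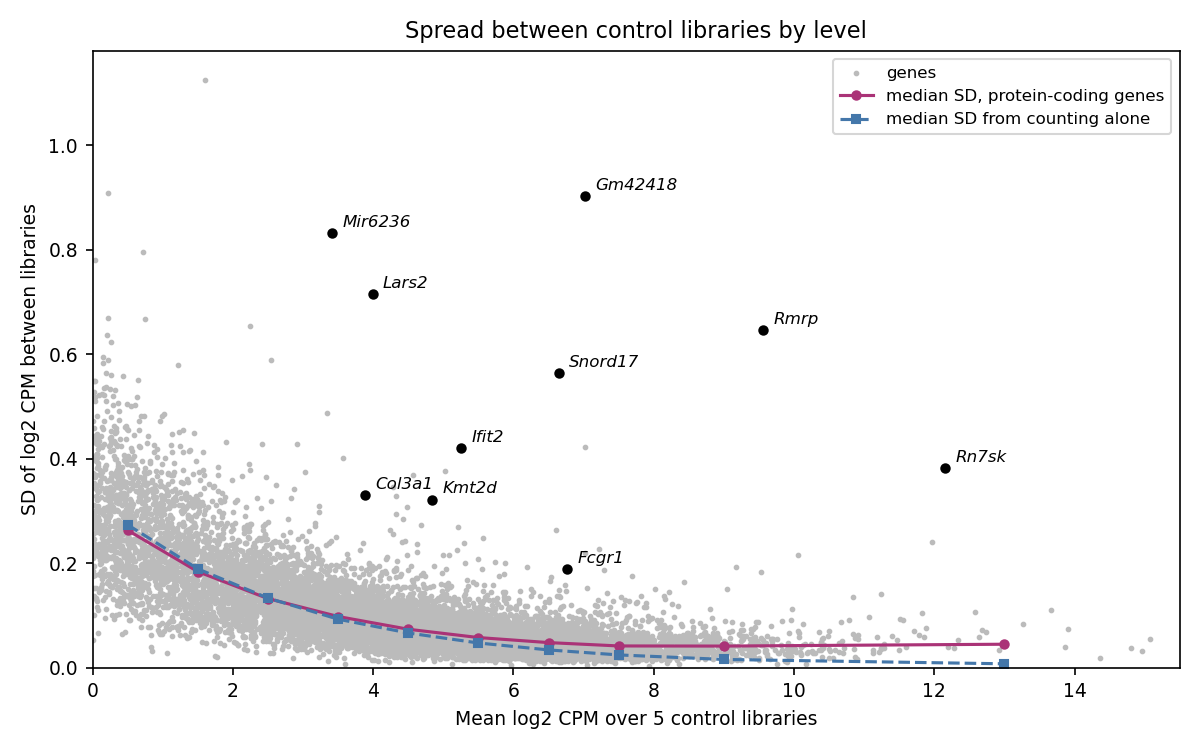
SD of log2 CPM between the 5 control libraries (vertical axis) against mean log2 CPM (horizontal axis), with 1 grey point per gene, the median SD of protein-coding genes (solid) and the median SD from counting alone (dashed). The lines coincide below a mean of 3 and part above it, and Gm42418, Mir6236, Lars2, Rmrp, Snord17 and Rn7sk stand far above both.

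The 10 protein-coding genes with the largest SD were Lars2, Ifit2, Ifit3, Col3a1, Mx1, Kmt2d, Slfn1, Ifit1, Col5a2 and 4931406C07Rik. Apart from the interferon genes, they fell into patterns of their own. Lars2, a mitochondrial leucyl-tRNA synthetase (chr9:123366927-123462666), had log2 CPM of 5.05, 3.41, 3.28, 4.28 and 3.94, an SD of 0.716. The same libraries were high and low for Gm42418, a locus on chromosome 17 annotated as a long intergenic RNA, with 8.56, 6.21, 6.55, 6.84 and 6.93, and for Mir6236 with 4.74, 2.54, 2.91, 3.40 and 3.48. Replicate 1 was the highest for all 3 genes by a wide margin. What moves these genes together was not tested.

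Collagen and stromal genes varied as well, but not as one block. Col3a1 had log2 CPM of 4.02, 3.78, 3.98, 4.26 and 3.38, Col1a2 had 4.51, 4.18, 4.80, 4.54 and 4.10, and Dcn had 2.55, 2.20, 2.84, 2.36 and 2.05. Replicate 6 was the lowest for all 3, and replicate 3 the highest for Col1a2 and Dcn. Col1a1 went the other way, with 1.80, 1.60, 1.87, 1.85 and 2.33 and its highest value in replicate 6. Summed over the 9 fibroblast genes, the levels were 57.5, 47.8, 67.4, 61.2 and 45.3 CPM, and the part of stromal cells in the spread of the matrix list was not tested. Kmt2d, a histone methyltransferase, was highest in replicate 6 at 5.38, against 4.53 to 4.85 elsewhere. In that library the deviation of each gene from its mean rose with the GC content of its transcript (Spearman rho 0.38 across 4720 protein-coding genes, which share a library and are not independent), and in replicate 1 it fell (rho -0.32). In replicate 6 the median deviation was -0.0351 in the lowest GC class of 5 and 0.0322 in the highest, and in replicate 1 it was 0.0321 and -0.0116. In replicate 2 the deviation fell with GC content (rho -0.20) and with merged exon length (rho -0.24). In replicate 4 it rose with length (rho 0.23). The remaining values of rho, for GC content or length, lay between -0.07 and 0.09. The part of GC content or length in the spread of single genes was not tested.

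Small structural RNAs formed a further pattern. Rmrp, the RNA of RNase MRP, had log2 CPM of 9.20, 10.36, 10.12, 8.88 and 9.21, and Rn7sk, the 7SK RNA, 11.99, 12.70, 12.36, 11.73 and 11.97. Snord17 had 6.40, 7.21, 7.27, 6.05 and 6.27. Replicates 2 and 3 were high and replicate 4 low for all 3. Rpph1, the RNA of RNase P, did not follow them, with 11.74, 12.17, 11.96, 11.73 and 12.26 and its highest value in replicate 6. Such RNAs together took 0.813% of reads in replicate 4 and 1.35% in replicate 2, and Rmrp and Rn7sk share 100% and 72.8% of their 31-base words with other annotated genes.

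**Figure D5:**
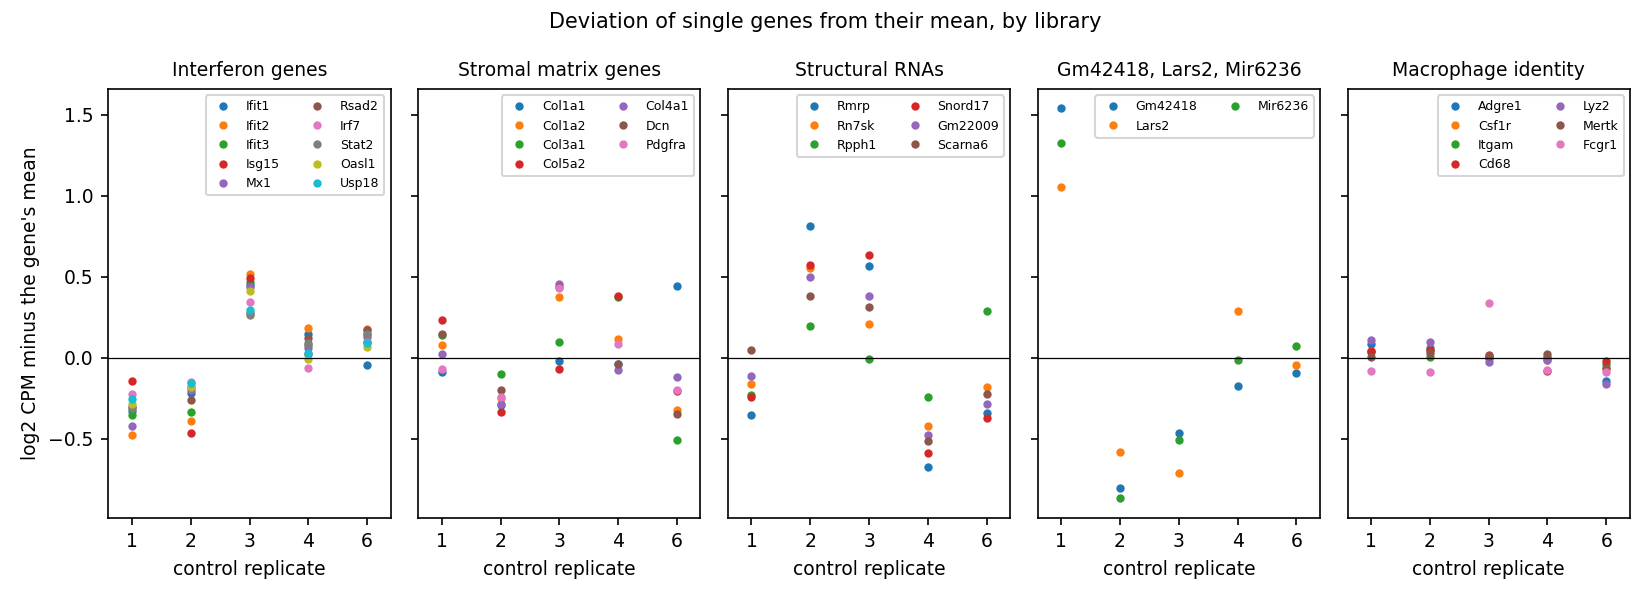
log2 CPM minus the gene's own mean (vertical axis) in each control replicate (horizontal axis), with 1 coloured point per gene in 5 panels. Interferon genes peak in replicate 3, Gm42418, Lars2 and Mir6236 in replicate 1, most structural RNAs in replicates 2 and 3, while macrophage identity genes stay near 0 apart from Fcgr1 in replicate 3.

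Some low levels fell on genes that are usually abundant. Gapdh, the glycolytic enzyme often used as a reference, had log2 CPM of 4.50, 4.56, 4.54, 4.32 and 4.49 and ranked 5430 at 2.44 per kilobase. Pgk1 and Ppia stood at 2.27 and 3.81, while Actb, B2m and Eef1a1 stood at 11.85, 11.77 and 9.46. Ribosomal protein genes took 0.654% to 0.680% of reads, with a median of 3.74 per kilobase over 84 genes and a highest level of 9.48, for Rplp1. Those 84 genes share a median of 23.9% of their 31-base words with other annotated genes, against 0.409% for detected protein-coding genes, and Gapdh and Pgk1 share 27.2% and 54.7%. The treatment of reads that match several genes is unknown, so levels of such genes are uncertain and their low values were not traced to a cause. Shared words were not limited to low genes, since the abundant Rplp1, Eef1a1 and Actb share 75.1%, 49.8% and 23.5%, B2m shares none, and Ppia, which was low, shares 15.9%. The same uncertainty holds for other genes named above. Oas1a, Itgam and Ifit3 share 68.8%, 68.1% and 61.8%, Ftl1, Ifitm2 and S100a4 share 57.7%, 55.5% and 49.2%, and Lyz1, Ctsd and Lyz2 share 34.2%, 33.2% and 32.8%.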

How the data were processed

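RNA-seq of 5 negative control libraries was described from the authors' deposited table, whose expression values are log2 CPM per Ensembl gene. The submitters' processing notes list STAR, featureCounts of the Subread package, and edgeR as tools, with versions, genome build, strand setting and the handling of reads that match several genes not given in the sources used here. From the values, each is log2 of whole reads plus 0.5 over a scaled total, and reads were recovered for 100% of values (within 0.01 read). The first of repeated rows was kept, and the 6 mimic columns entered no value. With 1 group there is no test, so results are levels, SDs over 5 libraries and counts, computed in Python 3.11.15 (pandas 2.3.3, numpy 2.4.6). The SD from counting alone assumes Poisson reads. Gene lengths, 31-base words and GC content come from GENCODE M21 and promoters from RefSeq; 189 genes had no length. The spread measure was tested on simulated counts. The members and the 49 gene lists (916 distinct genes in the table) were chosen with earlier results of these data known. Named genes are the 4 markers, the 20 highest per kilobase, up to 6 highest and the 3 most variable genes per list, low genes a reader would look for, and the 10 with the largest SD; others were chosen after their values were seen, as were the sequence measures. Some listed genes are not reported here. Alternatives were other detection levels, lengths, totals and offsets, and each library left out.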

Additional observations from a re-analysis of the deposited data

Results flagged for a closer look

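In 373 groups of 5 values (named genes, summed lists and library measures), 17 had 1 library far from the other values by Dixon's ratio, and chance flags about 1 in 20 groups, so this number is no larger than chance would give. Some of the genes were also named for a large SD, so that rate is only a rough guide. Replicate 3 stood above the rest for Fcgr1 (log2 CPM 7.11), Ifitm3 (7.58), Mcm6 (5.85) and the summed CPM of cytokines (385, the nearest library at 360.2). Replicate 4 stood below the rest for Apoe (14.33), Gapdh (4.32), Gpx1 (10.25), Pcna (6.85) and the summed CPM of scavenger receptors (9729). Replicate 6 stood above the rest for Angptl4 (4.18), Xist (8.99) and the summed CPM of sex-linked transcripts (509.5), which is nearly all Xist, and below for Cx3cr1 (0.31) and Scarb2 (8.08). Replicate 1 stood below the rest for Thrb (-0.79) and Tnfsf13b (0.49), both from few reads. Replicate 2 stood above the rest in the percent of reads on ribosomal protein genes (0.680%). For Fcgr1 the nearest library lay at 6.69, but for Apoe at 14.37, so some of these gaps are wide only beside a very small spread.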

How the results depend on the processing

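The number of detected genes, 11489, lay between 11139 and 12848 under other detection rules and between 11411 and 11430 with 1 library left out. Without a length correction 13 of the 20 highest genes were shared, and with the longest transcript 18. With a floor of 1 in place of 3 for the mean log2 CPM, 211 protein-coding genes had an SD above 0.25 in place of 20, and the median SD was 0.0696. With 1 library left out, those counts lay between 19 and 30, and the median SD between 0.0565 (without replicate 6) and 0.0612. Recomputed under these alternatives, 231 values of level stayed within the SD between libraries and none moved beyond it. Of the results on rank, 177 stayed and 61 moved. Beside ranks of single genes, these include the counts of shared highest genes, which were judged within 1.5 times. Leaving out 1 of 5 libraries cannot move a mean level by more than the SD between libraries. For levels, only the other totals and the other offset could therefore have given a different result. Of the recomputed counts of list members, 340 stayed within 1.5 times and 3 did not, with 2 B cell and 2 endothelial genes at 0.5 CPM and 3 mesothelial genes when all 5 libraries had to reach the level. No paired analysis was possible because only 1 group is described. Depth limits genes under a mean log2 CPM of 3, where the median SD was close to that from counting alone. Single genes could still exceed it. Isg15, at a mean log2 CPM of 2.61, had an SD of 0.35, and the median from counting between 2 and 3 was 0.134.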
